A study of Mus musculus with 6 samples.

Results

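The 10 genes described here are expressed by the endothelial cells that line brain blood vessels, or act at the blood-brain barrier that those cells form. They were listed by name, with earlier results of these data known, and are grouped here by role: Pecam1, Kdr, Flt1 and Tek for endothelial identity, Cldn5 and Ocln for tight junctions, Slco1a4 and Abcb1a for transport and efflux, and Vcam1 and Icam1 for leukocyte adhesion. All 10 were found by their Ensembl identifiers among the 29872 genes listed in each library, and all 10 were among the 13864 genes tested. RNA had been sequenced from the hippocampus of C57BL/6 J mice in 6 libraries. In the 3 libraries labelled shHepaCAM, genotype HepaCAM knockdown, an adeno-associated virus (AAV) had been delivered to the CA1 field on both sides, with a short hairpin RNA against hepaCAM, an adhesion molecule of astrocytes. The 3 libraries labelled shControl carry the genotype WT, and the labels do not say whether these mice received a virus. No label gives the age of the mice or the promoter of the vector, or says whether each library is 1 mouse. The p-values therefore measure only how far these libraries spread, which may be technical.

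The blood-brain barrier is a property of brain endothelium. Its cells are sealed to each other by tight junctions, carry few transport vesicles, and hold uptake carriers and efflux pumps that decide which molecules reach the tissue. Astrocytes, the cells that make hepaCAM, wrap the vessels with endfeet. Healthy brain endothelium holds little of the adhesion molecules that leukocytes grip before they leave the blood, and inflammatory cytokines raise them.

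Libraries were of like depth, between 14903195 and 17341839 reads, and no member was at 0 in any library. Levels are in RPKM, reads scaled to the length of the exons and the depth of the library, and sets of 3 values follow the order of replicates 1, 2 and 3. The shControl libraries held Hepacam at 37.3, 33.4 and 35.9 RPKM and the shHepaCAM libraries at 24.4, 22.6 and 20.9 RPKM, without overlap and in the direction of the labels (log2 difference -0.63, SE 0.07, limma adjusted p = 0.00924). That call was lost without shControl replicate 3 (-0.62, limma adjusted p = 0.0526). All 12 hippocampal neuron markers passed the filter on low values, 2 of them fell in shHepaCAM (Calb1 at -0.71 and Snap25 at -0.70, limma adjusted p = 0.0299 and 0.0441) and 0 rose. Calb1 lost the call in 8 of 17 other analyses and Snap25 in 9 of 17 (highest limma adjusted p = 0.116 and 0.144). Choroid plexus, the secretory epithelium next to the hippocampus, was unevenly present: its 12 markers summed to 118 RPKM in shControl replicate 1 and 71 RPKM in shHepaCAM replicate 3, against 2030 to 4920 RPKM in the other 4 libraries. Calls and differences that changed without these 2 libraries are given both ways where they concern a member or a called gene of the related lists below. Hepacam itself was at -0.54 without them (limma adjusted p = 0.0695). All libraries are bulk tissue, in which fewer vessels and less RNA per endothelial cell cannot be told apart.

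The adhesion gene Icam1 rose, and no difference beyond the spread between libraries was detected in the 8 endothelial, junction and transport genes. Of the 10 members, 1 was higher and 0 were lower at an adjusted p of 0.05 in limma, a linear model fitted to log2(RPKM + 1) across all genes tested. Over all genes tested, 6.07% were called: 4.23% were higher and 1.84% lower. The split of calls depended on scaling: 587 were higher and 255 lower as deposited, and 336 were higher and 347 lower once libraries were scaled to their median gene; Icam1 was called either way. Values of the 2 groups did not overlap for 2 members, Icam1 and Vcam1, both higher in shHepaCAM, while over all genes tested 31.5% had groups that did not overlap and 20.9% were higher in this sense. The 10 members had a median log2 difference of -0.01, beside 0.05 for all genes tested. An exact two-sided permutation test of 3 libraries against 3 cannot go below p = 0.1.

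**Figure D1:**
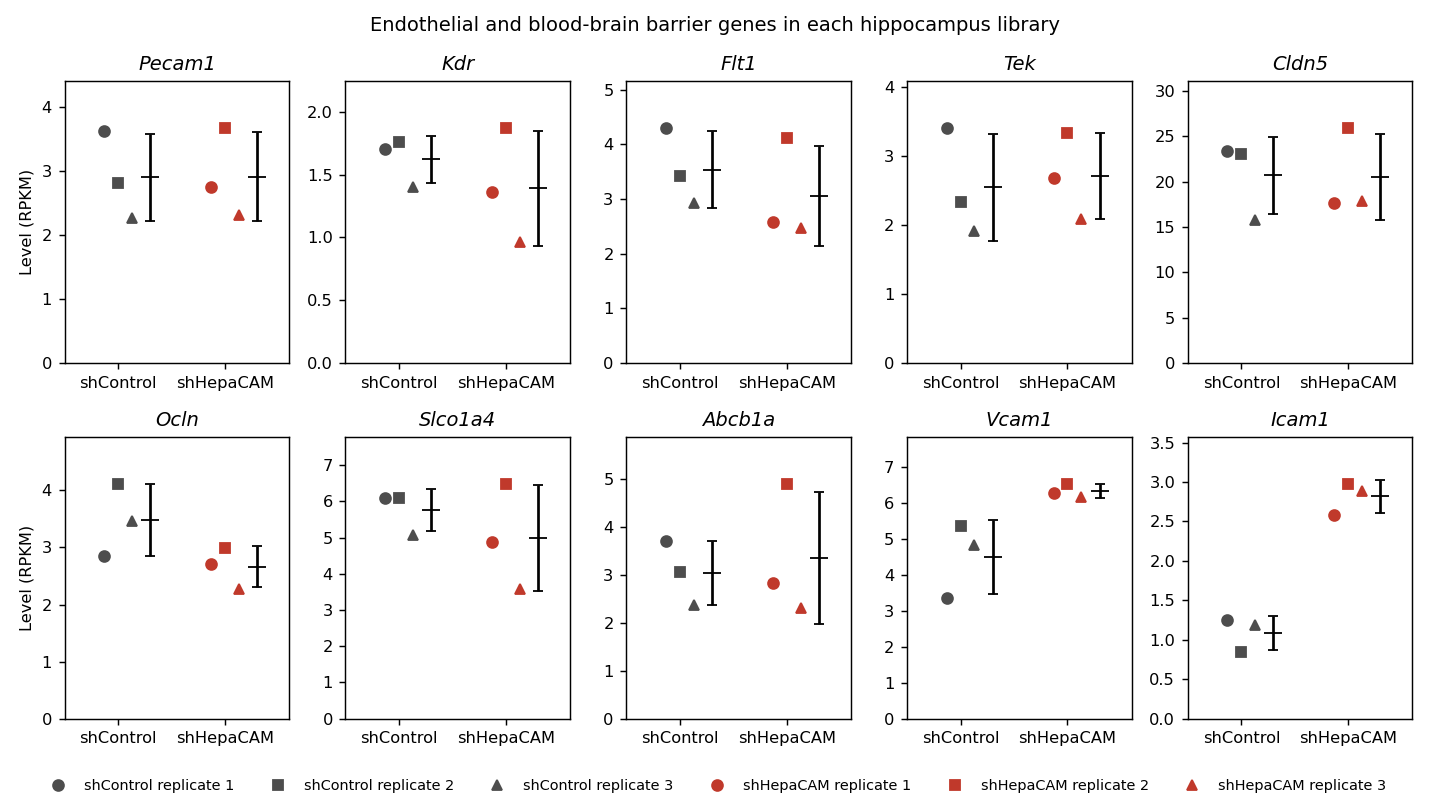
Level in RPKM (vertical axes, each from 0) of the 10 genes in each library, with shControl in grey and shHepaCAM in red, marker shape for the replicate number, and bars for the mean ± SD of 3 libraries. Icam1 and Vcam1 are higher in all 3 shHepaCAM libraries than in any shControl library; for the other 8 genes the groups overlap.

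Per length of transcript, the tight junction gene Cldn5 was the most abundant member, at 20.7 ± 4.23 RPKM (SD, n = 3) in shControl, above every other member in every control library. Slco1a4 was next at 5.76 ± 0.584 RPKM (SD, n = 3), followed by Vcam1, Flt1, Ocln, Abcb1a, Pecam1 and Tek, each of which overlapped its neighbour in this order. Kdr at 1.62 ± 0.189 and Icam1 at 1.09 ± 0.215 RPKM (SD, n = 3 each) came last, each below the range of the gene before it. In shHepaCAM, Cldn5 again came first, Vcam1 moved from rank 3 to rank 2, Ocln from rank 5 to rank 9, and Icam1 from rank 10 to rank 7. Between 64 and 993 reads stood behind each member in each library, the fewest for Icam1 in shControl replicate 2.

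Among the identity genes, Pecam1 encodes an adhesion molecule at the contacts between endothelial cells. Control libraries held 3.62, 2.81 and 2.27 RPKM and knockdown libraries 2.75, 3.67 and 2.31 RPKM. Means of 2.9 ± 0.679 and 2.91 ± 0.694 RPKM (SD, n = 3 each) were close together and the groups overlapped. The log2 difference was 0.00 (95% interval -0.40 to 0.40, limma adjusted p = 0.994). These values do not tell 0 from a change of either sign inside that interval.

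Kdr and Flt1 encode the receptors for vascular endothelial growth factor: Kdr carries most of the growth signal, and Flt1 binds the ligand tightly and acts largely as a decoy. Kdr was at 1.7, 1.76 and 1.4 RPKM in shControl and at 1.36, 1.87 and 0.96 RPKM in shHepaCAM. Its log2 difference was -0.14 (95% interval -0.52 to 0.23, limma adjusted p = 0.621). Both the highest and the lowest of the 6 values belonged to shHepaCAM libraries. Flt1 was at 4.3, 3.42 and 2.92 RPKM in shControl and at 2.58, 4.11 and 2.47 RPKM in shHepaCAM, a log2 difference of -0.18 (95% interval -0.60 to 0.24, limma adjusted p = 0.588). Here the groups overlapped through shHepaCAM replicate 2 alone, as the other knockdown libraries lay under every control value.

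Tek, also called Tie2, is the endothelial receptor for the angiopoietins, which steady vessels. It was at 3.4, 2.33 and 1.91 RPKM in shControl and at 2.68, 3.33 and 2.09 RPKM in shHepaCAM. The knockdown values lay inside the control range, with a log2 difference of 0.07 (95% interval -0.37 to 0.51, limma adjusted p = 0.847).

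Of the tight junction genes, Cldn5 encodes claudin-5, the main sealing protein of brain endothelium. It was at 23.4, 23 and 15.8 RPKM in shControl and at 17.6, 25.9 and 17.9 RPKM in shHepaCAM. Both groups spanned a wide range and overlapped, and the log2 difference was -0.02 (95% interval -0.47 to 0.43, limma adjusted p = 0.96). Ocln encodes occludin, a junction protein of endothelium and of epithelia such as choroid plexus. It was at 2.85, 4.12 and 3.46 RPKM in shControl and at 2.71, 2.99 and 2.28 RPKM in shHepaCAM. Its difference of -0.29 (SE 0.13, 95% interval -0.59 to 0.02, limma adjusted p = 0.237) did not pass, and the groups overlapped through shControl replicate 1. In each group the lowest Ocln value belonged to the library poorest in choroid plexus markers. Its difference ran from -0.39 without shControl replicate 1 to -0.18 without shControl replicate 2 (limma adjusted p = 0.166 and 0.525), and was -0.31 without both libraries poor in choroid plexus markers (adjusted p = 0.268); the part of choroid plexus RNA in the Ocln values was not tested.

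The transport genes also overlapped between the groups. Slco1a4 encodes Oatp1a4, a carrier of organic anions in brain endothelium. It was at 6.09, 6.1 and 5.08 RPKM in shControl and at 4.87, 6.49 and 3.59 RPKM in shHepaCAM (log2 difference -0.20, 95% interval -0.61 to 0.21, limma adjusted p = 0.517). Without both libraries poor in choroid plexus markers its difference was 0.01. Abcb1a encodes P-glycoprotein, the efflux pump that keeps many drugs out of the brain. It was at 3.71, 3.06 and 2.38 RPKM in shControl and at 2.83, 4.91 and 2.31 RPKM in shHepaCAM (log2 difference 0.07, 95% interval -0.46 to 0.60, limma adjusted p = 0.873). The interval of Abcb1a was the widest of the 10, with its highest and its lowest value both in shHepaCAM. Its close copy Abcb1b averaged 0.727 ± 0.113 RPKM in shControl and 0.906 ± 0.247 RPKM in shHepaCAM (SD, n = 3 each), and no source used here says how reads that match both copies were counted.

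Within a group, many members shared their highest or lowest library, with exceptions among the controls. In the knockdown group, shHepaCAM replicate 2 held the highest value of all 10 members and shHepaCAM replicate 3 the lowest of 8, Cldn5 and Icam1 being lowest in shHepaCAM replicate 1. In the control group, shControl replicate 3 held the lowest value of 7 members, which are the 4 identity genes, Cldn5 and both transport genes. The highest control value was in shControl replicate 2 for Kdr, Ocln, Slco1a4 and Vcam1, and in shControl replicate 1 for the other 6. Ocln and Vcam1 ran the other way in the controls, with their lowest value in shControl replicate 1, and Icam1 was lowest in shControl replicate 2. Vessel content of the dissected tissue was not measured apart from these genes.

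**Figure D2:**
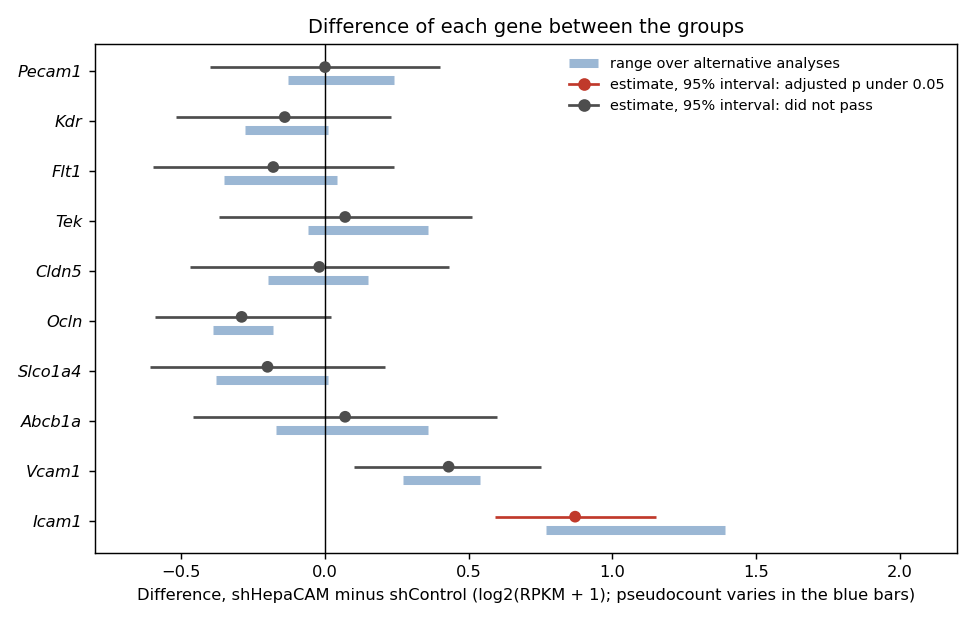
Difference of each gene on the log2(RPKM + 1) scale (points, with 95% intervals from limma), in red where the adjusted p was under 0.05, and the range of the estimate over the other analyses run (blue bars, 16 or 17 for each gene). The interval of Icam1 runs from 0.59 to 1.15 and lies right of all others' estimates; for 8 genes the interval includes 0.

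Icam1 was the member that rose. It encodes intercellular adhesion molecule 1, which leukocyte integrins of the beta 2 class bind during firm arrest on the vessel wall, and which microglia and other cells also make under inflammatory signals. Control libraries held 1.25, 0.846 and 1.19 RPKM and knockdown libraries 2.58, 2.98 and 2.88 RPKM. Every knockdown value was more than any control value, with no overlap of their counting intervals: the highest upper bound among controls was 1.53 RPKM and the lowest lower bound among knockdown libraries 2.22 RPKM (exact Poisson, 95%, counting error only). Group means were 1.09 ± 0.215 and 2.82 ± 0.21 RPKM (SD, n = 3 each), a ratio of 2.58. In limma Icam1 rose by 0.87 on the log2(RPKM + 1) scale (SE 0.12, 95% interval 0.59 to 1.15, adjusted p = 0.0138), and the exact permutation test gave p = 0.1. The pseudocount holds this value down for so low a gene: limma-voom on whole reads gave 1.39 (adjusted p = 0.00484).

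The call of Icam1 was lost in 5 of 16 other analyses, with adjusted p-values in limma of 0.0515 without shControl replicate 2, 0.0555 without shControl replicate 3, 0.0522 with no filter on low values and 0.0777 without both libraries poor in choroid plexus markers; the estimate stayed between 0.77 and 1.39. With the replicate number as a block, which the labels do not tie to shared animals, the adjusted p was 0.0623. Gm47079, on the opposite strand, shares 511 bases of exon with Icam1 and was at most 0.385 RPKM; the strand setting of the counting is unknown, so reads from the pair cannot be told apart there. Icam5, a neighbouring family member made by forebrain neurons, was at 59.1 ± 4.3 RPKM in shControl and 60.6 ± 7.55 RPKM in shHepaCAM (SD, n = 3 each; log2 difference 0.03, 95% interval -0.20 to 0.26, limma adjusted p = 0.874).

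Promoters were to be shown for members whose groups did not overlap, which are Icam1 and Vcam1. No window was at hand for Vcam1, so only that of Icam1 is shown. The cytokine response of Icam1 is known to run through nearby factor sites. The window runs from 250 bases before to 50 bases after the RefSeq start, at chr9:21015690-21015989 on the plus strand of GRCm38.p6, an older build than the mm39 of the deposited values. Capitals mark matches, on either strand, to GGNNNTTCC, letters like those that NF-kB binds, and to TTCNNNGAA, letters like those that STAT factors bind.
Icam1 promoter: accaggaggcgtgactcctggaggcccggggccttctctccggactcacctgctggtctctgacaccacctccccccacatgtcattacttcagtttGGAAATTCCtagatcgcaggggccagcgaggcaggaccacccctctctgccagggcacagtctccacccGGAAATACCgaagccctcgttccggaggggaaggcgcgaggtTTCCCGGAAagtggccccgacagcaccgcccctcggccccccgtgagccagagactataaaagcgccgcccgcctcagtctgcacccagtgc

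The first NF-kB-like match in that window, GGAAATTCC, begins 153 bases before the start and reads as a match on both strands; the second, GGAAATACC, begins 84 bases before it and matches on the other strand. The STAT-like match, TTCCCGGAA, begins 42 bases before the start. No match overlaps another. Of all 32851 RefSeq promoter windows of 300 bases, 18.5% held the NF-kB-like letters, 8.3% the STAT-like letters and 1.66% both. An ETS-like motif, CCGGAAGT, was searched too: 3.89% of all windows held it and that of Icam1 did not. Windows were at hand for 8 members, and the other 7 (Kdr, Flt1, Tek, Cldn5, Ocln, Slco1a4 and Abcb1a) held none of the 3 motifs. Vcam1 and Pecam1 had no window and were not searched. A match describes letters only and shows no binding.

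Vcam1 encodes vascular cell adhesion molecule 1, the ligand of the leukocyte integrin alpha 4 beta 1, and is also made by astrocyte-lineage and perivascular cells. Control libraries held 3.35, 5.34 and 4.81 RPKM and knockdown libraries 6.26, 6.53 and 6.17 RPKM. The knockdown libraries lay close together above every control library, and the controls were spread by the low value of shControl replicate 1. Means were 4.5 ± 1.03 and 6.32 ± 0.187 RPKM (SD, n = 3 each), 40.4% higher in shHepaCAM. The difference of 0.43 (SE 0.14, 95% interval 0.10 to 0.75) had an unadjusted p of 0.0165 in limma and did not pass once adjusted over all genes (adjusted p = 0.118). No other analysis called it, with adjusted p-values of 0.0678 to 0.242; without both libraries poor in choroid plexus markers it was at 0.28 (limma adjusted p = 0.224). The difference was 0.27 without shControl replicate 1, the control library poorest in choroid plexus markers, whose part in the low value was not tested.

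Set against other endothelial genes of the same library, Icam1 was still higher. The geometric mean of Pecam1, Cldn5, Cdh5, Tie1 and Erg, 5 endothelial genes, was 3.46 ± 0.607 RPKM in shControl and 3.34 ± 1.1 RPKM in shHepaCAM (SD, n = 3 each), with overlapping groups. The log2 ratio of Icam1 to this panel was -1.73, -1.94 and -1.34 in shControl and -0.18, -0.62 and 0.20 in shHepaCAM. It did not overlap between the groups, and its group means differed by 1.47. The log2 ratio of Vcam1 was -0.31, 0.72 and 0.68 in shControl and 1.10, 0.51 and 1.30 in shHepaCAM, and these groups overlapped through shHepaCAM replicate 2. Ratios of Kdr, Flt1, Tek, Ocln, Slco1a4 and Abcb1a also overlapped, with differences between -0.29 and 0.19. With the mean of 8 endothelial genes that are no members as a covariate, limma gave Icam1 a difference of 0.86 (adjusted p = 0.0188) and called no other member. These 8 genes were Cdh5, Tie1, Erg, Emcn, Cd34, Ptprb, Egfl7 and Robo4. Cd34 was itself called higher in shHepaCAM, so the covariate may carry part of the group difference.

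**Figure D3:**
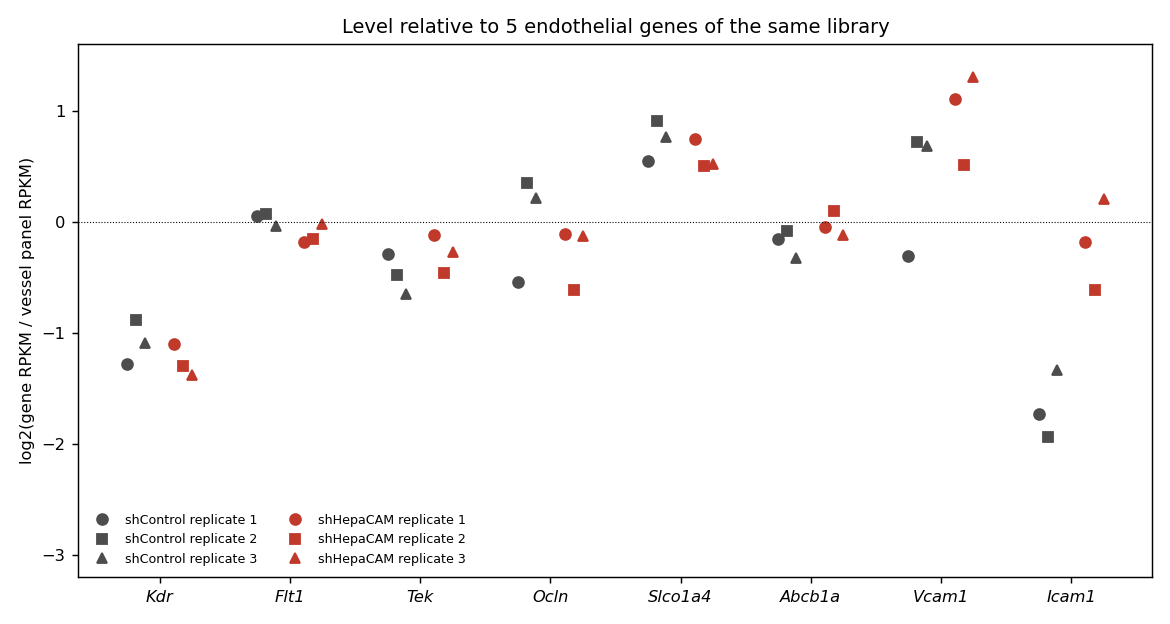
Log2 ratio of each gene's RPKM to the geometric mean of Pecam1, Cldn5, Cdh5, Tie1 and Erg in the same library (vertical axis), with shControl in grey and shHepaCAM in red and marker shape for the replicate number. The groups are apart for Icam1, at -1.94 to -1.34 in shControl and -0.62 to 0.20 in shHepaCAM, and overlap for the other 7 genes.

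Cells other than endothelium also make Icam1, and markers of some of them moved with it. All 12 microglia markers were higher in every shHepaCAM library than in any control library and 8 rose in limma; their summed level was 436 to 504 RPKM in shControl and 806 to 961 RPKM in shHepaCAM, and none was at 0. Lymphocyte and plasma cell markers summed to 5.2 to 6.83 RPKM in shControl and 512 to 1830 RPKM in shHepaCAM, mostly from Igkc, the antibody kappa chain. Of the 5 markers tested 4 rose. Except for Igkc, those tested (Jchain, Trac, Trbc2 and Cd79a) averaged under 1 RPKM in shControl. They passed the filter only through their shHepaCAM values, so the share that rose is no independent result. Ms4a1, a B cell marker, was at 0 in 2 control libraries. The 8 perivascular macrophage markers all lay under the filter, with sums of 2.39 to 3.11 RPKM in shControl and 2.93 to 4.34 RPKM in shHepaCAM. Markers of blood were lower in sum: the 5, hemoglobins and Alas2, summed to 7.9 to 21.3 RPKM in shControl and 5.55 to 7.08 RPKM in shHepaCAM, without overlap, though 0 of the 3 tested were called. The sums of neutrophil markers (3.8 to 9.42 and 1.56 to 7.55 RPKM), of fibroblast and meningeal markers (32.4 to 91.3 and 27.3 to 68.1 RPKM) and of astrocyte markers (996 to 1100 and 983 to 1070 RPKM) overlapped between shControl and shHepaCAM. Among the 12 astrocyte markers Hepacam and Slc1a2, a glutamate carrier, fell, Slc1a2 by 0.37 on the log2 scale (limma adjusted p = 0.0181). Slc1a2 lost the call in 6 of 17 other analyses (highest limma adjusted p = 0.122). The part of these cells and of blood in the Icam1 difference, and in those of the other members, was not tested. Relative to the geometric mean of the 12 microglia markers, the log2 ratio of Icam1 was -4.37, -4.73 and -4.24 in shControl and -3.83, -3.65 and -3.89 in shHepaCAM, which did not overlap. The same ratio of Vcam1 did overlap. Ratios of the integrin chains Itgb2 and Itgax, which microglia also make, did not overlap and were higher in shHepaCAM too. Group means differed by 0.65 for Icam1, 0.26 for Itgb2 and 1.65 for Itgax.

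The leukocyte side of adhesion held some of the larger differences in the related lists. Of 12 integrins and selectin ligands, 6 were tested, 3 rose and 0 fell, with a median log2 difference of 0.33. Itgb2, the beta 2 chain of the integrins that bind Icam1, went from 4.63, 4.25 and 4.11 RPKM in shControl to 7.93, 9 and 8.88 RPKM in shHepaCAM, a rise of 0.85 (SE 0.08, limma adjusted p = 0.00518). Itgax, an alpha chain that pairs with it, rose by 1.63 (SE 0.14, limma adjusted p = 0.00428), from 0.998 ± 0.143 to 5.25 ± 1.09 RPKM (SD, n = 3 each). The shControl mean of Itgax lay just under the 1 RPKM of the filter, which the gene passed through its shHepaCAM values. Itgb2 and Itgax kept their calls in every other analysis run on them, 17 and 16. Selplg, a selectin ligand, rose by 0.41 (limma adjusted p = 0.0331) and lost the call in 11 of 17, among them each analysis that left out 1 library other than shHepaCAM replicate 2 (limma adjusted p of 0.0627 to 0.123) and the one without both libraries poor in choroid plexus markers (0.176). Itga4, the alpha chain that binds Vcam1, was at -0.13 (limma adjusted p = 0.521). Microglia make Itgb2 and Itgax as well as blood leukocytes do, and the marker sums above apply to both.

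On the endothelial side of adhesion, 0 of 7 genes tested were called. Alcam, an adhesion molecule of endothelium and neurons, was at -0.25 (limma adjusted p = 0.114; it passed in 1 of 17 other analyses) and Cd47, a widely made signal against phagocytosis, at 0.17 (limma adjusted p = 0.238). The selectins Sele and Selp, which start leukocyte rolling, were at most 0.0602 and 0.0573 RPKM in any library. Madcam1, an adhesion ligand of gut vessels, lay under the filter at 0.0407, 0.321 and 0.14 RPKM in shControl and 0.484, 0.863 and 0.978 RPKM in shHepaCAM. Its values rest on 1 to 23 reads per library, and it was named after they were seen.

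Some genes downstream of inflammatory signalling rose. Of 12 tested genes of NF-kB feedback and cytokine response, 2 rose and 0 fell, with a median log2 difference of 0.34. The other 10 were not called, among them Nfkbia at 0.15 and Nfkbiz at -0.02 (limma adjusted p = 0.585 and 0.931). Irf1, an interferon-induced transcription factor, went from 2.79, 2.63 and 2.78 RPKM in shControl to 5.3, 5.3 and 4.54 RPKM in shHepaCAM (log2 difference 0.69, SE 0.09, limma adjusted p = 0.00924). Nfkb2, an NF-kB subunit, rose by 0.57 (SE 0.10, limma adjusted p = 0.0268), from 1.3 ± 0.14 to 2.4 ± 0.0715 RPKM (SD, n = 3 each). Irf1 lost the call in 4 of 16 other analyses: without shControl replicate 2 or 3 (limma adjusted p = 0.053 and 0.0526), without both libraries poor in choroid plexus markers (0.0513) and with the replicate block (0.0547). Nfkb2 lost it in 8 of 16, among them without any 1 library other than shHepaCAM replicate 1 (limma adjusted p of 0.059 to 0.109) and without both (0.116). In 7 of the 12 genes the groups did not overlap, all higher in shHepaCAM, beside the 20.9% of all genes tested that were higher without overlap. Among the 7 are Bcl3 and Tnfaip3, which averaged 0.732 and 0.868 RPKM in shControl. They passed the filter only through their shHepaCAM values, which raises that count.

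The endothelial identity list, 20 of whose 24 genes were tested, had 2 genes that rose and 0 that fell, with a median of 0.03. Cd34, a sialomucin of capillary endothelium, was at 4.63, 4.58 and 4.56 RPKM in shControl and 6.69, 6.33 and 7.44 RPKM in shHepaCAM, and it rose by 0.48 (SE 0.08, limma adjusted p = 0.0202). Ly6a, a surface protein of brain endothelium that interferon also induces, rose by 0.45 (SE 0.08, limma adjusted p = 0.0252), from 18.4 ± 1.59 to 25.4 ± 1.49 RPKM (SD, n = 3 each). Cd34 lost the call in 7 of 17 other analyses, among them without shControl replicate 1, 2 or 3 or shHepaCAM replicate 3 (limma adjusted p of 0.0524 to 0.0925) and without both libraries poor in choroid plexus markers (0.116). Ly6a lost it in 8 of 17, among them without shControl replicate 2 or 3 or shHepaCAM replicate 2 or 3 (limma adjusted p of 0.056 to 0.105) and without both (0.0709). The other 18 genes were not called. Cdh5, the cadherin of endothelial junctions, was at -0.20 (limma adjusted p = 0.632).

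Among partners of the tight junction and other transporters, 1 gene rose. Of 14 junction complex genes tested, Jam2, a junctional adhesion molecule of endothelium, rose by 0.33 (SE 0.07, limma adjusted p = 0.0479), 0 fell and the median was 0.07. Jam2 was at 7.27, 6.29 and 6.25 RPKM in shControl and 8.58, 8.65 and 8.42 RPKM in shHepaCAM, with no overlap. It lost the call in 12 of 17 other analyses, among them without any 1 library (limma adjusted p of 0.0608 to 0.168) and without both libraries poor in choroid plexus markers (0.113). Of 16 other barrier transporters tested, 0 were called and the median was -0.07. Slc38a5, a glutamine carrier, was at 2.61, 2.06 and 1.17 RPKM in shControl and 5.3, 7.47 and 2.97 RPKM in shHepaCAM (log2 difference 1.05, SE 0.30, limma adjusted p = 0.0864). Slc6a6, the taurine carrier, was at 0.51 (limma adjusted p = 0.0552). Neither passed here, though in both the groups did not overlap. Of the transporters tested, 4 were higher without overlap and 1 was lower, beside 20.9% and 10.7% of all genes tested. The lower gene was Slc2a1, at -0.38 (limma adjusted p = 0.224). Slc6a6 passed in 5 of 17 other analyses (lowest adjusted p = 0.0295, limma-voom). Slc38a5 passed in 2 of 16 (lowest adjusted p = 0.0331, limma with the vessel covariate described above).

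Ligands and signals that shape the barrier gave no call. The VEGF and angiopoietin list holds ligands, receptors and related genes, of which 10 were tested (median -0.09). Pgf, a ligand of Flt1, was at 1.81 ± 0.206 RPKM in shControl and 1.06 ± 0.102 RPKM in shHepaCAM (SD, n = 3 each, log2 difference -0.45, limma adjusted p = 0.0686). Angpt1, the ligand that activates Tek, averaged 1.16 ± 0.0415 RPKM in shControl and 1.76 ± 0.0622 RPKM in shHepaCAM (SD, n = 3 each; log2 difference 0.35, limma adjusted p = 0.0933). In both genes the groups did not overlap, in opposite directions, and each passed in 1 of 16 other analyses. Of 13 genes of Wnt signalling, which induces and keeps the barrier (median 0.04), the ligand Wnt7a was at -0.34 (limma adjusted p = 0.0639) and Axin2, a target of the pathway, at 0.33 (limma adjusted p = 0.0952). Axin2 passed in 1 of 17 other analyses, and Wnt7a in 0 of 16.

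Structures around the endothelium gave no call either. Vesicle and fenestration genes (6 tested, median 0.14) had the smallest p-values in Ehd4, at 0.20, and Cav1, the coat protein of caveolae, at 0.17 (limma adjusted p = 0.258 and 0.296). Of 12 pericyte and smooth muscle genes tested (median 0.07), Pdgfrb, the receptor that holds pericytes to vessels, was at 0.25 and Rgs5 at -0.20 (limma adjusted p = 0.269 and 0.284), with ranges of 0.15 to 0.34 and -0.31 to -0.12 when single libraries were left out. Of 9 basement membrane genes tested (median -0.05), Col4a2, a collagen of the vessel sheet, was at -0.32 and Agrn at 0.30 (limma adjusted p = 0.0871 and 0.127). Over all 11 lists, 8 of 125 genes tested rose and 0 fell, or 6.4%, near the 6.07% called among all genes. This pooled share hides uneven lists: 3 of 6 integrin and selectin ligand genes rose and 2 of 12 NF-kB and cytokine genes. In the identity list 2 of 20 rose, in the junction list 1 of 14, and the other 7 lists had no call. In limma, 35 of the 125 and 2 of the 10 members had an unadjusted p under 0.05, as did 24.2% of all genes tested.

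**Figure D4:**
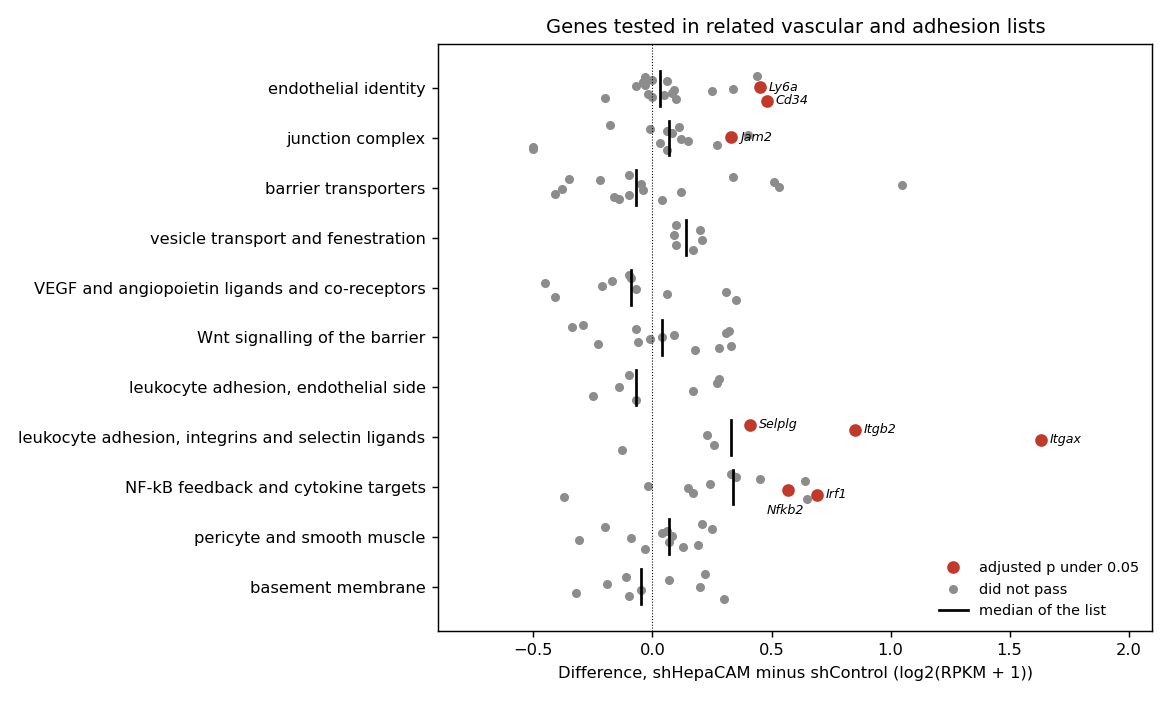
Difference of each gene tested in 11 related lists on the log2(RPKM + 1) scale (horizontal axis), in red with its symbol where the adjusted p was under 0.05, with the median of each list as a black bar. The 8 red points are all right of 0 and lie in the identity, junction, integrin and NF-kB lists.

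Genes whose pattern over the 6 libraries was most like that of a member were found by Pearson correlation of log2(RPKM + 1), as a description. Nearest to Icam1 were Lgals3bp, Sbno2, H2-T23, H2-Q6 and Tipin (r of 0.999, 0.998, 0.995, 0.995 and 0.994), all higher in shHepaCAM, with log2 differences of 0.71, 0.33, 0.81, 1.84 and 0.30. Some H2 genes are close copies of each other, so separate values such as that of H2-Q6 are uncertain. Nearest to Vcam1 were Hspb6, Por, Ifi27, Adh5 and Avpi1 (r of 0.979 to 0.991), none of which passed the test. Nearest to the mean of Pecam1, Cldn5, Flt1, Kdr, Tek, Abcb1a and Slco1a4 were Orc4, Gtpbp10, Cep126, Setdb2 and Tldc1 (r of 0.983 to 0.99), with log2 differences of -0.04 to -0.01. Each r rests on 6 libraries that fall into 2 groups, and all genes of a library share its depth and dissection. Genes chosen for likeness to a pattern share its direction through that choice, so their differences are no added result.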

How the data were processed

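Gene expression was measured by RNA sequencing in 6 hippocampus libraries, grouped and numbered by their titles. The authors deposited RPKM values, 1 file per library; per the submitters' processing notes, reads were handled by TopHat2 2.0.12 with Bowtie2 2.0.6 and the build was mm39. Read counter, annotation and strand setting: not given in the sources used here. Symbols (29805 of 29872 identifiers) and exon lengths came from GENCODE M21, on another build. The unit was checked from the values: RPKM times exon length gave whole reads, within 0.01 read in every library, for 91.8% of genes with a length, and 99.2% of all genes were resolved once 2264 took a length of their own, Cldn5 among them. These reads gave depths, Poisson intervals and 1 alternative. No pair of libraries agreed within sampling noise (chi-square of at least 3.77 per degree of freedom).

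The test was limma 3.58.1 in R 4.3.3 with a mean-variance trend on log2(RPKM + 1), keeping genes that averaged 1 RPKM or more, with Benjamini-Hochberg adjustment over all genes tested and a threshold of 0.05. This scale understates the change of low genes. The script was tested on simulated data.

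The members and lists were chosen with earlier results of these data known. Named genes are the members, Hepacam and, per related list, genes called (up to 6) or, where none was, the 2 with the smallest p. Itga4, Cdh5, Icam5, Abcb1b, Sele, Selp, Madcam1, Gm47079, Ms4a1, Igkc, Jchain, Trac, Trbc2, Cd79a, Slc2a1, Nfkbia, Nfkbiz, Bcl3 and Tnfaip3 were added after their values were seen. Alternatives were other scalings, filters, a pseudocount of 0.1, no trend, array weights, limma-voom, a replicate block and leaving out each library. The vessel covariate, the ratio to microglia markers and leaving out both choroid-poor libraries were added after the data were seen. Python 3.11.15 with matplotlib 3.10.9 made the figures.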

Additional observations from a re-analysis of the deposited data

How the results depend on the processing

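Icam1 kept its direction in all 16 analyses run on it and was not called in 5: no filter on low values (0.87, adjusted p = 0.0522 in limma), the replicate block (0.87), leaving out both choroid-poor libraries (0.91) and leaving out shControl replicates 2 or 3; over single libraries left out its difference ran from 0.78 to 0.92. The count of members called was 0 in those analyses and with a filter at 5 RPKM, which removes Icam1, and 0 to 1 with single libraries left out. Vcam1 and Ocln kept their signs throughout and were never called. Members near 0 changed sign. Pecam1 was at -0.06 scaled to the median gene, -0.09 with quantile normalization, -0.02 with array weights, -0.01 in limma-voom and -0.03 with the vessel covariate. Tek was at -0.02 with quantile normalization; Abcb1a was at -0.02 with it and at -0.01 with array weights. Without both choroid-poor libraries Kdr was at 0.01, Flt1 at 0.04, Cldn5 at 0.15, Slco1a4 at 0.01, and Tek and Abcb1a both at 0.36. Over single libraries left out, Ocln ran from -0.39 to -0.18, Vcam1 from 0.27 to 0.54, Pecam1 from -0.13 to 0.13, Kdr from -0.28 to -0.01, Flt1 from -0.35 to -0.06, Slco1a4 from -0.38 to -0.02, Tek from -0.06 to 0.24, Cldn5 from -0.20 to 0.07 and Abcb1a from -0.17 to 0.24. None of these was called.

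In the related lists the count of 8 was 5 scaled to the median gene, 3 with no filter, 2 with the replicate block, 13 with the vessel covariate, 2 without both choroid-poor libraries and 2 to 8 with single libraries left out. All genes of the vessel covariate belong to the endothelial identity list, so that count of 13 is not independent of the covariate. Over all genes the count of 842 was 169 with no filter, 157 with the replicate block, 104 without both choroid-poor libraries and 98 to 867 with single libraries left out. The cause was not tested. Same-numbered libraries did not deviate together (correlations of -0.21, 0.015 and -0.145). With deviations taken from means of 3 libraries, these correlations cannot show whether the numbers pair the samples. Depth limits Icam1 most, with 64 to 93 reads per control library.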
